A study of Mus musculus with 9 samples.

Results

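The genes described here are 10 components of the tight junction, picked by name from a table of read counts for 54532 gene identifiers: the claudins Cldn3, Cldn4, Cldn5, Cldn7, Cldn8, Cldn10 and Cldn12, occludin (Ocln), the scaffold protein Tjp1 and the adhesion molecule F11r. All 10 were found and all 10 passed the filter on low counts, which kept 15224 genes. The tissue was the submandibular gland, a major salivary gland, of mice of WT genotype that received 10 Gy of radiation and were sampled 30, 60 or 90 days later, with 3 samples per time point, each labelled as salivary gland. Every group was irradiated, and time after radiation cannot be told apart from the age of the mice, which the labels do not give. RNA was taken from 4 sections of 50 µm per gland, so each library mixes acini, ducts, vessels, stroma and immune cells, and non-irradiated glands were not analysed here. The labels do not say whether the samples of a group came from separate mice, so the p-values measure only the spread between these samples.

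Tight junctions seal neighbouring epithelial cells near their apical surface and set which ions and how much water can pass between cells. Claudins form the strands and, depending on the family member, act as barriers or as ion-selective pores. Occludin and its relatives shape the strands, junctional adhesion molecules such as F11r hold the membranes together, and the ZO scaffold proteins tie the strands to actin. In a salivary gland, the junctions of the acini let sodium and water follow secreted chloride into the lumen, while those of the ducts hold back water as salt is taken up. Claudin-5 is best known from endothelial cells, where it seals the vessel wall.

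In outline, Cldn3 and Cldn10 had the highest levels per length of transcript at every time point, and Cldn3, Cldn10, Cldn8 and Cldn4 together made up most of the claudin total in each library. From 30 to 90 days Ocln rose by 0.48 ± 0.13 on the log2 scale (SE), a fold of 1.40, and passed the test. Its adjusted p of 0.0426 by edgeR lay close to the threshold, and the call was lost in 9 of 19 alternative analyses. Tjp1 and Cldn12 had lower values at 90 days and did not pass, Tjp1 by a small margin (adjusted p = 0.0550 by edgeR). The other 7 genes did not pass the test in any comparison either.

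The stretch just upstream of a RefSeq start is shown for 5 genes around which the results turn: Ocln, the gene that rose, Tjp1, its scaffold partner, Cldn3 and Cldn4, high in the gland and on opposite strands of chromosome 5, and Cldn5, the lowest of the set. Each is 250 bases long, comes from RefSeq (GRCm38.p6) and reads 5′ to 3′ on the gene's own strand. The Tjp1 window belongs to a start inside the gene span that GENCODE gives, downstream of the span's first base, and Ocln has a further RefSeq start that is not shown. Capitals mark 3 motifs searched on both strands: CAGGTG, the E-box bound by Snail and Zeb repressors, GGGCGG, the GC box bound by Sp factors, and AACNGGTT, the Grainyhead-type motif.
Ocln, chr13:100552719-100552968, minus strand: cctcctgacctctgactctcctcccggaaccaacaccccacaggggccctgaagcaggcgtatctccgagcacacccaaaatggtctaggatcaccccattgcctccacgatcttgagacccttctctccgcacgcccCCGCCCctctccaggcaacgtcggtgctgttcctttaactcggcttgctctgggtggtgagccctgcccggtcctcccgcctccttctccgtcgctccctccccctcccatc
Tjp1, chr7:65371245-65371494, minus strand: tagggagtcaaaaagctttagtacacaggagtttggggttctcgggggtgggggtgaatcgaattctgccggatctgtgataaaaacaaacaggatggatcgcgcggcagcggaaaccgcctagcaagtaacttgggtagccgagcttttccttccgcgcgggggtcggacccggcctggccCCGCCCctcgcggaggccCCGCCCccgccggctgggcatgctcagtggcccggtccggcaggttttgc
Cldn3, chr5:134985964-134986213, plus strand: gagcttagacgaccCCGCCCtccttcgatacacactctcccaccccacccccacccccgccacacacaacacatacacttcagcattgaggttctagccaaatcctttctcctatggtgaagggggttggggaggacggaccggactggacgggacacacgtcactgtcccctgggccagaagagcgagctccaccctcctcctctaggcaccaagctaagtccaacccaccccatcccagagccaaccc
Cldn4, chr5:134946935-134947184, minus strand: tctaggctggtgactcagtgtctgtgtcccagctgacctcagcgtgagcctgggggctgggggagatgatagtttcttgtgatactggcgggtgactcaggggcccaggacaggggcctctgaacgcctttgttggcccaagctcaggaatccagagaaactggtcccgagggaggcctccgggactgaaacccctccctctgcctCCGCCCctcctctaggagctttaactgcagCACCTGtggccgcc
Cldn5, chr16:18776597-18776846, plus strand: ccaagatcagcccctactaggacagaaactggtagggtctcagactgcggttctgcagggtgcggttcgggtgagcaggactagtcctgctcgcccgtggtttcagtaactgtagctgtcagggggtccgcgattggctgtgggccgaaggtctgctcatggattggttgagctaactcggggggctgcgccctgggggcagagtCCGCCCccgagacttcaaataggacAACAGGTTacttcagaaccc

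The Tjp1 window holds 2 GC boxes, and the printed windows of Ocln, Cldn3, Cldn4 and Cldn5 hold 1 each. The window of the other Ocln start, chr13:100552499-100552748, holds 2 E-boxes and 1 GC box. The Cldn4 window also holds 1 E-box, close to its 3′ end, and the Cldn5 window holds 1 Grainyhead-type motif. For the 10 genes, 14 windows were found, some of which overlap each other, and none of them belongs to Cldn8. Of these 14, 11 held a GC box, 4 an E-box and 1 a Grainyhead-type motif. Among 32851 windows of the same length, 32.7% held a GC box, 17.2% an E-box and 1.79% a Grainyhead-type motif. A match of letters is a description and not a bound site. The Cldn10 gene has 2 RefSeq starts with unlike surroundings: the upstream window was 36.0% G and C with no motif, and the downstream window 72.4% with 3 GC boxes. The first exon decides whether claudin-10 favours anions or cations, and the gene counts used here do not separate the transcripts.

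Levels of different genes were compared as CPM, the counts of a gene scaled to a common library total with TMM factors, per kilobase of merged exons. Cldn3, a barrier-forming claudin encoded by a single exon of 1259 bases (ENSMUSG00000070473, chromosome 5, 134986214 to 134987472, GRCm38), was the highest of the 10 in 9 of 9 libraries, with 64.5 ± 8.53 CPM per kb (SD over 9 libraries). Cldn10, the pore-forming claudin (ENSMUSG00000022132, chromosome 14, 118787908 to 118875489), was next in 9 of 9 libraries at 49.3 ± 10.9 CPM per kb. Their order rests on the length used. With the longest transcript in place of merged exons, Cldn3 stood at 64.5 and Cldn10 at 60.0 CPM per kb, and Cldn3 was the higher in 5 of 9 libraries.

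Below this pair came Cldn8 and Cldn4, which could not be ranked. Cldn8, a barrier to sodium in tight epithelia (ENSMUSG00000050520, chromosome 16, 88560828 to 88563183), reached 32.5 ± 3.24 CPM per kb, and Cldn4, a claudin of many ducts (ENSMUSG00000047501, chromosome 5, 134945119 to 134946934), 32.5 ± 4.48. Cldn8 was above Cldn4 in 4 of 9 libraries. F11r, the junctional adhesion molecule JAM-A (ENSMUSG00000038235, chromosome 1, 171437535 to 171464603), followed at 26.2 ± 2.00 CPM per kb and was below Cldn4 in 8 of 9 libraries. Cldn7, which also lies along the lateral membrane of epithelial cells (ENSMUSG00000018569, chromosome 11, 69964779 to 69967885), had 18.1 ± 2.12 CPM per kb. Its longest transcript is 1335 bases against 1948 merged bases, and with that length its level was 26.4 CPM per kb, still sixth of the 10.

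The remaining 4 genes were clearly lower. Tjp1, which encodes the scaffold ZO-1 (ENSMUSG00000030516, chromosome 7, 65296165 to 65527781), had 6.71 ± 0.964 CPM per kb. Ocln (ENSMUSG00000021638, chromosome 13, 100496507 to 100552718) had 4.79 ± 0.789 and was below Tjp1 in 8 of 9 libraries. Cldn12, a claudin that lacks the tail motif for binding ZO proteins (ENSMUSG00000046798, chromosome 5, 5489537 to 5514958), had 3.13 ± 0.755 and was below Ocln in 8 of 9. Cldn5 (ENSMUSG00000041378, chromosome 16, 18776847 to 18778262) was last in 9 of 9 libraries with 0.899 ± 0.267 CPM per kb. These ranks were the same at 30, 60 and 90 days except that Cldn4 and Cldn8 changed places at 90 days.

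**Figure D1:**
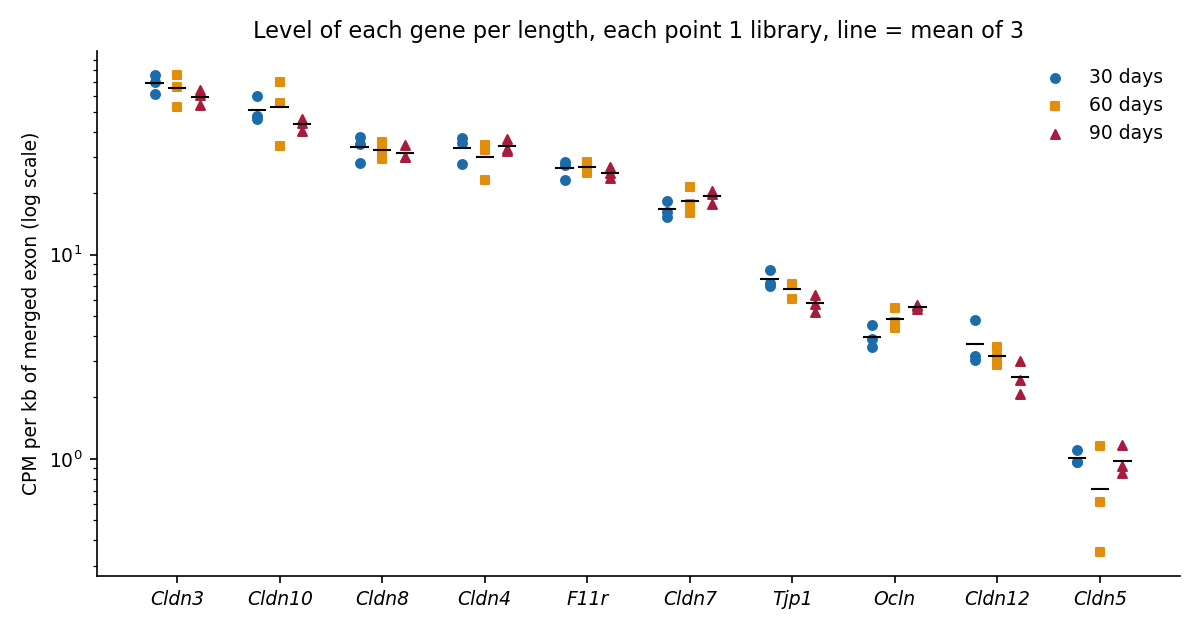
Level of each of the 10 genes in CPM per kb of merged exons (log axis), with 1 point per library, coloured by day, and a line at the mean of 3 libraries. Cldn3 and Cldn10 lie at the top, Cldn5 lies below all others in 9 of 9 libraries, and the days overlap for most genes.

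The claudin make-up of the gland was set by a handful of genes. Of 33 claudin genes in the table, 20 had at least 1 count and 13 had none in the 9 libraries. The 7 claudins of the set carried 97.4% to 98.4% of the summed claudin level per length, and Cldn3, Cldn10, Cldn8 and Cldn4 together 85.7% to 88.4%. The share of Cldn3 was 32.4 ± 1.65% at 30 days, 31.4 ± 0.540% at 60 days and 30.3 ± 2.50% at 90 days, as mean ± SD with n = 3. The share of Cldn10 was 24.1 ± 3.03%, 25.0 ± 4.37% and 22.3 ± 1.71%. Both shares overlapped between all 3 days. Cldn7 held 7.84 ± 0.785%, 8.89 ± 0.701% and 9.88 ± 0.640% of the total, and Cldn12 1.72 ± 0.383%, 1.56 ± 0.158% and 1.28 ± 0.260%. Outside the set, the highest claudin was Cldn1, known from skin and other stratified epithelia, at 3.39 ± 0.612 CPM per kb, a level near that of Cldn12. The summed claudin level was 213 ± 14.8 CPM per kb at 30 days, 208 ± 37.9 at 60 days and 196 ± 2.15 at 90 days, and the 60-day libraries spanned the values of both other days.

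**Figure D2:**
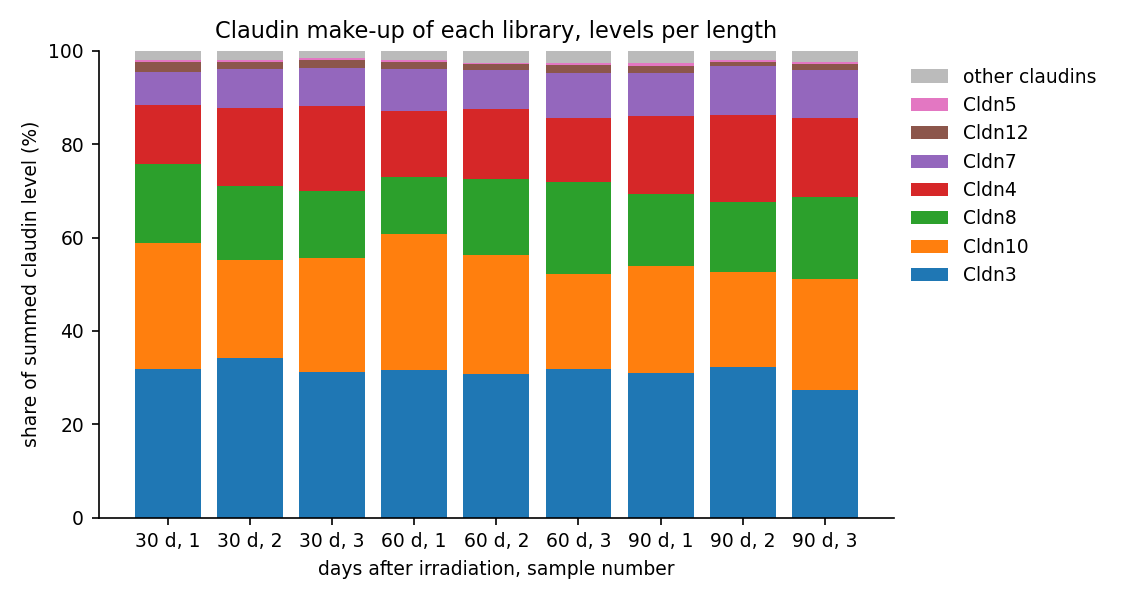
Share of each claudin in the summed claudin level per length (%), with 1 stacked bar per library, labelled by day and sample number. Cldn3, Cldn10, Cldn8 and Cldn4 together fill 85.7% to 88.4% of every bar.

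The change with day was tested for each gene with edgeR's quasi-likelihood test, fitted on all 9 libraries and 15224 genes, with Benjamini-Hochberg adjustment over all of these genes and a threshold of 0.05. From 60 against 30 days, 0 of the 10 genes passed, with 1.56% of all genes passing. From 90 against 60 days, 0 of 10 passed, against 0.256%. From 90 against 30 days, 1 of 10 passed, Ocln, which was higher, against 3.57% of all genes called, that is 1.81% higher and 1.77% lower. In the test of any difference among the days, 0 of 10 passed, against 3.29%. At an unadjusted p under 0.05, the counts were 1 of 10 (Ocln), 0 of 10, 3 of 10 and 3 of 10 (Ocln, Tjp1 and Cldn12 in the last 2 tests), where 12.4%, 10.8%, 16.8% and 16.7% of all genes lie. DESeq2 called 0, 0, 2 and 0 of the 10, the 2 being Ocln and Tjp1, where DESeq2 called 2.42%, 0.926%, 5.65% and 5.56% of all genes. The median log2 fold change of the 10 genes was -0.06, -0.07 and -0.08 in the 3 pairwise comparisons, where that of all genes was -0.0024, 0.00075 and 0.013. The comparisons share libraries pairwise and are not independent of each other. In bulk tissue, fewer cells of a type and less RNA per cell cannot be told apart.

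**Figure D3:**
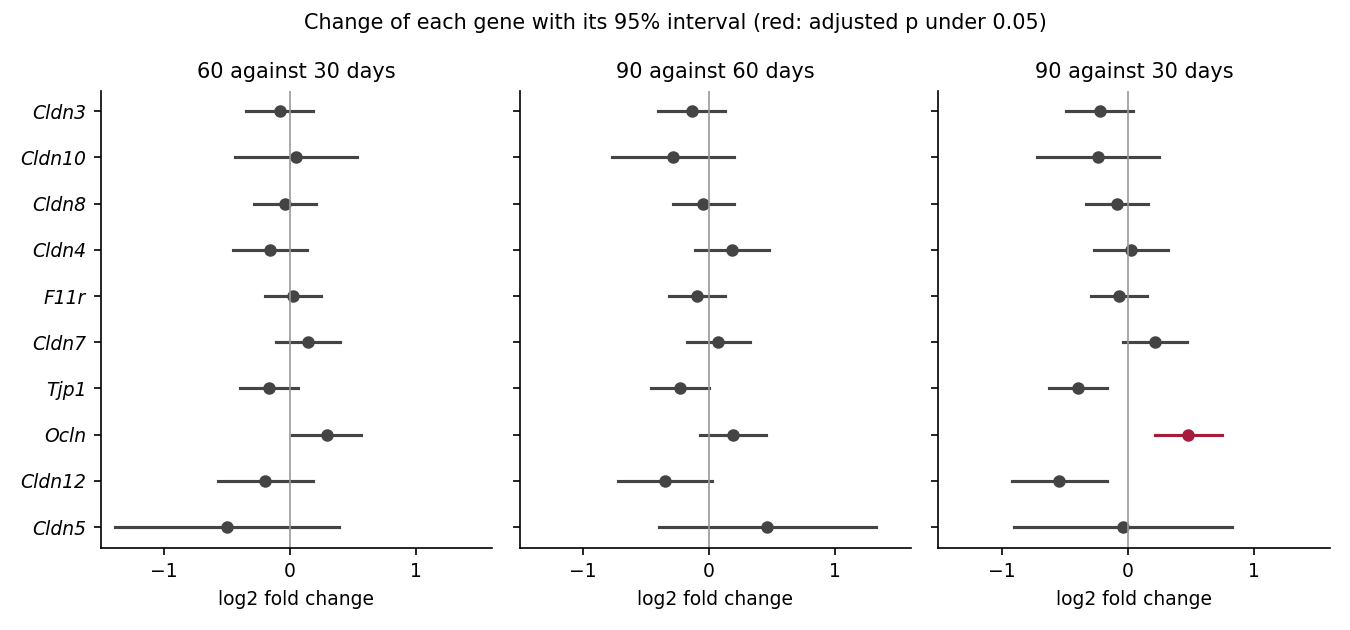
Log2 fold change of each gene with its 95% interval from the edgeR fit, in 3 panels for 60 against 30, 90 against 60 and 90 against 30 days, with genes ordered by level. Only Ocln at 90 against 30 days, in red, has an adjusted p under 0.05.

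Ocln encodes occludin, a membrane protein of the strands that is tied to the passage of larger solutes between cells. Its values were 14.9, 19.1 and 16.3 CPM at 30 days, 18.5, 23.2 and 19.8 at 60 days, and 23.8, 23.6 and 22.8 at 90 days. All 3 samples at 90 days lay above all 3 at 30 days, while the 60-day samples overlapped both. The means were 16.8 ± 2.17, 20.5 ± 2.46 and 23.4 ± 0.517 CPM (SD, n = 3 each), so the 90-day samples were also the closest to each other. At 90 against 30 days the log2 fold change was 0.48 ± 0.13 (SE, 95% interval 0.21 to 0.75), with an adjusted p of 0.0426 by edgeR. At 60 against 30 days it was 0.29 (adjusted p = 0.363) and at 90 against 60 days 0.19 (adjusted p = 0.617).

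The call on Ocln lies close to the threshold. It was kept in 10 of 19 alternative analyses, and its direction in 19 of 19, with adjusted p from 0.0124 to 0.254. Scaling the libraries on 5 epithelial reference genes (Epcam, Cdh1, Krt8, Krt18 and Spint2) gave 0.405 with an adjusted p of 0.254. Leaving out 1 library at a time gave log2 fold changes from 0.40 to 0.58 and ended the call for 6 of 9 libraries: 30-day samples 1 and 3, 60-day sample 2, and each of the 90-day samples. The highest adjusted p, 0.225, came without 30-day sample 1.

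Tjp1 encodes ZO-1, which binds the tails of most claudins and of occludin. It stood at 65.9, 55.0 and 57.0 CPM at 30 days, 47.1, 55.3 and 55.9 at 60 days, and 49.4, 41.0 and 44.9 at 90 days. The 3 samples at 90 days lay below the 3 at 30 days, with the 60-day samples in between and overlapping both. The means were 59.3 ± 5.80, 52.8 ± 4.89 and 45.1 ± 4.18 CPM (SD, n = 3 each). At 90 against 30 days the log2 fold change was -0.39 ± 0.11 (SE, 95% interval -0.63 to -0.16), and the adjusted p of 0.0550 by edgeR missed the threshold. It passed in 6 of 19 alternatives, DESeq2 among them (adjusted p = 0.0281), also without 60-day sample 1 (0.0307), 60-day sample 3 (0.0395) or 90-day sample 1 (0.0418). Tjp1 was not called in 6 of 9 fits that left out 1 library. The highest adjusted p of these, 0.265 by edgeR, came without 30-day sample 1 (log2 fold change -0.31). With library-size scaling alone, which moved the median of all genes to 0.24, the value was -0.16 (adjusted p = 0.575).

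Ocln and Tjp1 thus lay on opposite sides of 0, and their ratio of read counts does not depend on how libraries are scaled. The ratio was chosen after the values had been seen, from the genes with the largest differences in opposite directions, and is given with no test. It was 0.226, 0.348 and 0.286 at 30 days, 0.392, 0.420 and 0.355 at 60 days, and 0.483, 0.575 and 0.509 at 90 days. None of the 3 days overlapped another, with means of 0.287 ± 0.0610, 0.389 ± 0.0326 and 0.522 ± 0.0474 (SD, n = 3 each). The highest 30-day ratio, 0.348, lay just under the lowest 60-day ratio, 0.355. Of the 45 pairs among the 10 genes, 2 had ratios that kept all 3 days apart, Ocln to Tjp1 and Cldn8 to Ocln. Both contain Ocln, and the share of such pairs over all genes was not computed, so this count cannot be judged. Per kilobase, Ocln rose from 3.97 to 5.55 CPM per kb between 30 and 90 days, while the mean of Tjp1 was 7.60 at 30 days and 5.77 at 90 days, so the means of both lay close together at the last time point.

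Cldn12 is a claudin linked to calcium passage in the intestine. Its values were 20.2, 13.6 and 12.9 CPM at 30 days, 14.9, 13.4 and 12.2 at 60 days, and 12.8, 8.77 and 10.3 at 90 days. The highest 90-day sample lay just under the lowest 30-day sample, and sample 1 at 30 days stood above the other 8 libraries. The log2 fold change at 90 against 30 days was -0.54 ± 0.18 (SE, 95% interval -0.92 to -0.17), with an adjusted p of 0.107 by edgeR. Without 30-day sample 1 it was -0.32 (adjusted p = 0.538), and without 90-day sample 1 the adjusted p was 0.0498. It passed in 3 of 19 alternatives.

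**Figure D4:**
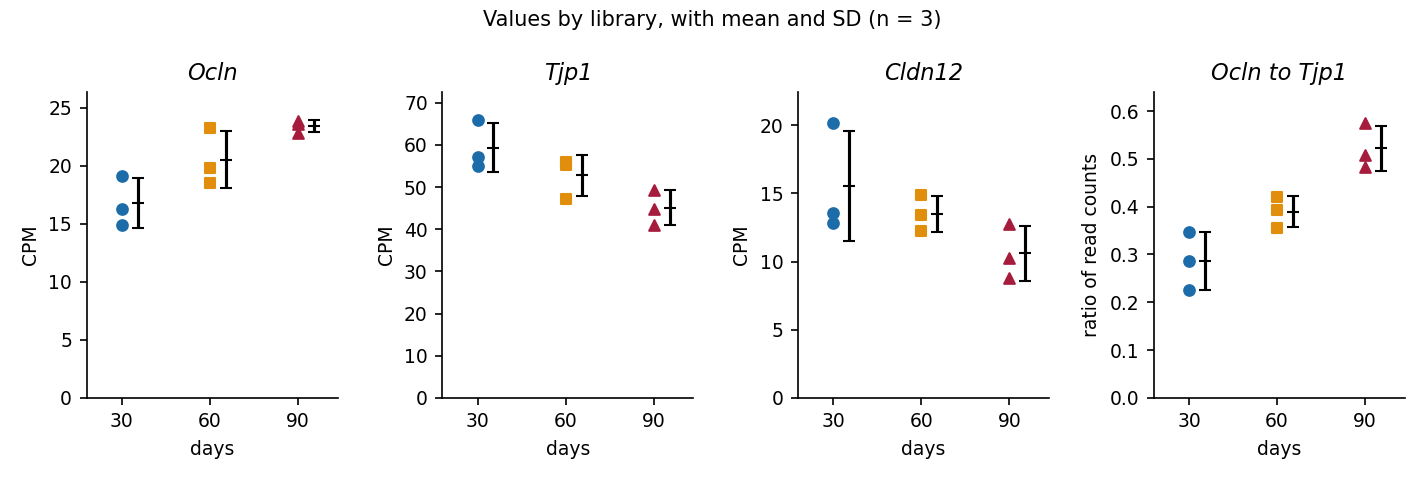
CPM of Ocln, Tjp1 and Cldn12 and the ratio of Ocln to Tjp1 read counts, with 1 point per library at 30, 60 and 90 days and the mean ± SD of 3 libraries beside them. The 90-day points of Ocln and of the ratio lie above, and those of Tjp1 and Cldn12 below, all 30-day points. The 30- and 90-day samples did not overlap for 23.2% of all genes, and the ratio was chosen after the values had been seen.

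Among the claudins with the highest levels, 0 passed the test in any comparison. Cldn10, the pore former, stood at 155, 120 and 124 CPM at 30 days, 182, 143 and 88.0 at 60 days, and 114, 104 and 120 at 90 days. Its 60-day samples held both the highest and the lowest of the 9 values. The log2 fold change at 90 against 30 days was -0.24 (95% interval -0.72 to 0.25, adjusted p = 0.669), although the highest 90-day value, 120.1 CPM, lay just below the lowest 30-day value, 120.2. With Ocln, Tjp1 and Cldn12, it made 4 of 10 genes whose 30- and 90-day samples did not overlap, 1 higher and 3 lower, where 23.2% of all genes did not (11.4% higher and 11.8% lower). At 60 against 30 and 90 against 60 days, 0 of 10 did not overlap, where 16.9% and 15.9% of all genes did not.

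Cldn3 was at 88.5, 95.5 and 76.9 CPM at 30 days, 95.8, 83.7 and 66.6 at 60 days, and 75.8, 80.2 and 67.7 at 90 days. The days overlapped, and the log2 fold change at 90 against 30 days was -0.22 (95% interval -0.49 to 0.04, adjusted p = 0.402). With library-size scaling alone it was 0.01, a move about as large as that of the median of all genes. Cldn4 was at 50.7, 67.5 and 64.1 CPM at 30 days, 62.4, 58.9 and 42.1 at 60 days, and 58.6, 66.9 and 60.0 at 90 days, with a log2 fold change of 0.02 (95% interval -0.27 to 0.32, adjusted p = 0.957). Sample 3 at 60 days was the lowest of the 9 libraries for Cldn3, Cldn4 and Cldn10 alike.

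Cldn8 was among the steadiest claudins, at 88.8, 81.7 and 66.4 CPM at 30 days, 69.4, 83.4 and 77.1 at 60 days, and 71.1, 70.5 and 81.5 at 90 days. Its log2 fold change at 90 against 30 days was -0.09 (95% interval -0.33 to 0.16, adjusted p = 0.783). Cldn7 was at 29.9, 35.7 and 31.6 CPM, then 41.8, 34.5 and 31.1, then 34.5, 39.8 and 38.8 at the 3 days. The days overlapped, with a log2 fold change of 0.22 (95% interval -0.04 to 0.47, adjusted p = 0.389).

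F11r was at 73.4, 76.0 and 61.8 CPM at 30 days, 76.0, 72.1 and 66.5 at 60 days, and 63.0, 66.8 and 71.2 at 90 days. Its log2 fold change at 90 against 30 days was -0.07 (95% interval -0.29 to 0.15, adjusted p = 0.810), the narrowest interval of the 10 genes. Over the 9 libraries its SD was 2.00 around a mean of 26.2 CPM per kb.

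Cldn5, the endothelial claudin, rested on 11 to 49 reads per library. Its values were 1.56, 1.37 and 1.36 CPM at 30 days, 1.64, 0.498 and 0.876 at 60 days, and 1.65, 1.20 and 1.31 at 90 days, above the level of 3 reads, 0.115 to 0.181 CPM. The 60-day samples held the lowest value and nearly the highest. Its log2 fold change at 90 against 30 days was -0.04 (95% interval -0.90 to 0.83, adjusted p = 0.977), the widest interval of the 10 genes. Markers of endothelial cells were present: 11 of 11 were tested, with a summed level of 147 to 160 CPM at 30 days, 132 to 134 at 60 days and 145 to 171 at 90 days. Cldn5 counts were 0.375% to 1.23% of the counts of those 11 genes, and the days overlapped in this share as well.

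Other genes of the junctions, with 17 transcription factors that act on such genes, came from 5 lists with 89 genes in all, of which 70 were tested. At 60 against 30 days, 0 of these 70 were called, against 1.56% of all genes. At 90 against 60 days, 1 was higher, Sox18, and 0 lower, against 0.256% of all genes. At 90 against 30 days, 1 was higher, Pkp1, and 1 lower, Cgnl1, against the 1.81% and 1.77% of all genes given above. In the test of any difference, 3 of the 70 were called, Cgnl1, Pkp1 and Sox18, against 3.29% of all genes. The median log2 fold change of the 70 genes at 90 against 30 days was 0.06, where that of all genes was 0.01.

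Among scaffold and polarity proteins, 22 of 22 were tested. Cgnl1 encodes paracingulin, a cytoplasmic protein of tight and adherens junctions, and had the highest level per length of the list, 32.2 ± 5.65 CPM per kb over 9 libraries. It stood at 327, 286 and 289 CPM at 30 days, 263, 255 and 233 at 60 days, and 234, 195 and 193 at 90 days. The 30- and 90-day samples did not overlap, and the change was -0.54 ± 0.11 (SE, adjusted p = 0.0109 by edgeR). The call was lost in 4 of 19 alternatives, with library-size scaling alone (-0.30, adjusted p = 0.269) and without 30-day sample 1, 90-day sample 2 or 90-day sample 3 (adjusted p up to 0.0712). Ybx3, a junction-bound factor that also shuttles to the nucleus, was the next highest at 29.1 ± 3.23 CPM per kb. Tjp3, a scaffold protein of epithelial junctions, had a log2 fold change of 0.39 at 90 against 30 days and did not pass (adjusted p = 0.0635).

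Among adherens junction and desmosome genes, 16 of 16 were tested. Pkp1, the desmosomal plakophilin of stratified and basal epithelia, stood at 49.4, 63.4 and 72.5 CPM at 30 days, 77.8, 78.6 and 86.8 at 60 days, and 85.3, 85.3 and 99.2 at 90 days. All later samples lay above the 3 at 30 days, and the change at 90 against 30 days was 0.54 ± 0.12 (SE, adjusted p = 0.0182 by edgeR). That call was lost in 4 of 19 alternatives: epithelial reference scaling (0.46, adjusted p = 0.172), and without 30-day samples 1 or 2 or 90-day sample 3 (adjusted p up to 0.118). Epcam, an epithelial adhesion molecule that binds claudin-7, had the highest level, 104 ± 8.34 CPM per kb, followed by Ctnnb1, β-catenin, at 44.7 ± 3.01, and neither passed the test at any day. Of the 7 markers of basal and myoepithelial cells, 7 of 7 were tested and 1, Trp63, was called higher at 90 against 30 days. Of all genes, 1.81% were called higher there. The log2 fold change of these markers was above 0 for 7 of 7, with a median of 0.40 where that of all genes was 0.013. Their summed level was 305 to 425 CPM at 30 days, 451 to 481 at 60 days and 420 to 594 at 90 days, and its part in the Pkp1 change was not tested.

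The remaining lists gave 1 call. Of the other claudins, 4 of 22 were tested and 0 called. Cldn1 was the highest and Cldn23 next, at 0.407 ± 0.179 CPM per kb. Of the other membrane proteins, 11 of 12 were tested and 0 called. Crb3, an apical polarity protein, led at 9.52 ± 1.45 CPM per kb, followed by Ildr1, an angulin of corners where cells meet, at 8.87 ± 0.548. Of transcription factors that act on junction genes, 17 of 17 were tested. Ehf and Elf3, epithelial Ets factors, were the highest at 54.9 ± 6.24 and 18.2 ± 1.60 CPM per kb, and neither was called. Sox18, a factor of endothelial cells, was at 3.54, 4.40 and 5.03 CPM at 30 days, 2.68, 3.08 and 1.67 at 60 days, and 6.17, 8.73 and 7.83 at 90 days. The 60- and 90-day samples did not overlap, and its change was 1.62 ± 0.24 (SE, adjusted p = 0.00342 by edgeR), a call kept in 19 of 19 alternatives. Cldn5 did not pass in the same comparison (log2 fold change 0.46, 95% interval -0.40 to 1.32, adjusted p = 0.746). Of the 11 endothelial markers, 1, Egfl7, was called higher there, where 0.256% of all genes were called in either direction. Their log2 fold change was above 0 for 10 and below 0 for 1, with a median of 0.20 where that of all genes was 0.00075. The part of the endothelial markers in the Sox18 change was not tested.

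**Figure D5:**
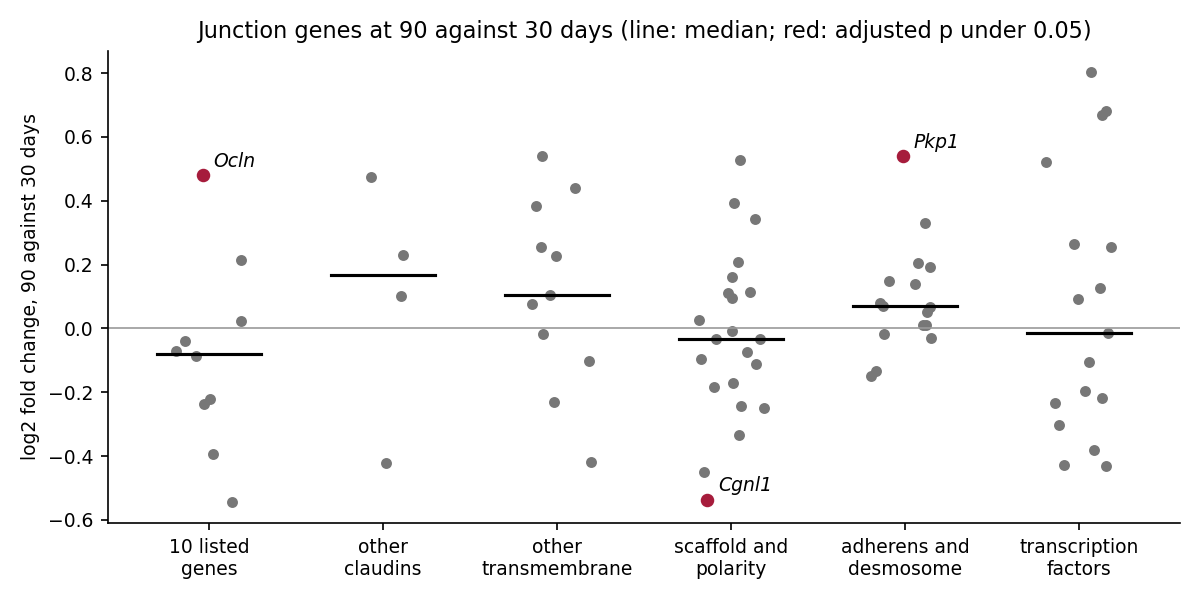
Log2 fold change at 90 against 30 days of every tested gene of the 10 listed genes and of the 5 other junction lists, with 1 point per gene and a line at the median of each list. Ocln and Pkp1 (higher) and Cgnl1 (lower), in red, are the genes with an adjusted p under 0.05.

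Markers of the gland's own cell types gave these values. Of 6 acinar markers, 3 were called lower at 90 against 30 days, Aqp5, Lpo and Etv1, where 1.77% of all genes were called lower. In that comparison 0 were called higher, while Bpifa2 had a log2 fold change of 2.43 that did not pass (adjusted p = 0.293). Etv1 was also called lower at 60 against 30 days, and Bhlha15 at 90 against 60 days (log2 fold change -0.78, adjusted p = 0.00581 by edgeR). The mean of Bhlha15 was 365 CPM at 30 days, 511 at 60 days and 298 at 90 days. Its log2 fold change at 60 against 30 days was 0.48 and did not pass (adjusted p = 0.0572 by edgeR). The summed level of the 6 acinar markers was 12530 to 14940 CPM at 30 days, 13700 to 17620 at 60 days and 7716 to 11290 at 90 days, but Pip alone made up 78.4% to 87.9% of it. Without Pip, the other 5 summed to 1875 to 2384, 1999 to 2228 and 1602 to 1670 CPM. Of 4 markers of the granular duct, 4 were called higher at 60 and at 90 days against 30. Of all genes, 1.56% were called in either direction at 60 against 30 days and 1.81% higher at 90 against 30 days. The granular duct sum was 1444 to 2983, 7809 to 10800 and 6943 to 11450 CPM. Of 6 striated and excretory duct markers, 0 were called, and 6 of 6 had a log2 fold change above 0 at 90 against 30 days. The median of these 6 was 0.14, where that of all genes was 0.013. Their sum was 17060 to 21110, 21380 to 23760 and 18190 to 20940 CPM, of which Klk1 alone made up 98.8% to 99.2%. Without Klk1, the other 5 summed to 190 to 217, 192 to 201 and 218 to 248 CPM. The 5 epithelial reference genes summed to 1194 to 1272, 1160 to 1497 and 1231 to 1349 CPM with 0 called. No gene of these 4 lists was at 0. The part of the mix of acini and ducts in the changes of Ocln, Tjp1 and Cldn12 was not tested. Depth moved with day as well: the 30-day libraries held 16541396 to 17179500 counts and the later ones 20410818 to 26065856. With all libraries drawn down to the smallest total, an analysis added after seeing the data, Ocln no longer passed at 90 against 30 days (log2 fold change 0.42, adjusted p = 0.0860).

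Genes whose pattern over the 9 libraries was most like that of Ocln, Tjp1 and Cldn12 were found by the root mean square difference of centred log2 CPM among 9560 genes of at least 5 CPM. For Ocln they were Akr1e1 (0.0702), Tmem8 (0.0711) and Arl10 (0.0748), where Ocln's own root mean square around its mean was 0.232. For Tjp1 they were Ubr3 (0.0389), Clcn3 (0.0528) and Wdr11 (0.0582), against 0.196. For Cldn12 they were Aass (0.0628), Mia2 (0.0745) and Slc20a2 (0.101), against 0.313. Of these 9 genes, Ubr3 and Wdr11 were called lower at 90 against 30 days (-0.42, adjusted p = 0.0409, and -0.44, adjusted p = 0.0431), as genes chosen for their likeness to Tjp1. Among the 10 junction genes, the smallest differences were between Cldn8 and F11r (0.111) and between Cldn3 and F11r (0.139). The own root mean square of these genes was 0.135 for Cldn8, 0.105 for F11r and 0.181 for Cldn3, so small differences here go with values that varied little.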

How the data were processed

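Read counts of bulk RNA were analysed for 9 libraries, 3 at each of 30, 60 and 90 days after 10 Gy, with the groups taken from the day in the title. The authors deposited raw, whole-number counts per Ensembl gene. Per the submitters' processing notes, fastp, STAR and featureCounts were used with the mm10 build. Their settings and the use of strand are not given in the sources used here, so reads of Cldn3 and of an antisense gene that shares 40 of its 1259 bases cannot be told apart. A further 3 columns matched no listed sample and were not used.

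Symbols were matched for 54409 of 54532 identifiers, and 54495 were in GENCODE mouse release 21 (GRCm38), which gave positions and exon lengths (Pals1 was matched by its older symbol Mpp5). At least 1 count was found for 27001 genes, and filterByExpr in edgeR 4.0.16 (minimum count 10) kept 15224. Counts were scaled by TMM, fitted with edgeR's robust quasi-likelihood model on all 9 libraries by time point (common biological coefficient of variation 0.150), and adjusted by Benjamini-Hochberg over all genes tested. CPM per kb divides by merged exons. Depth ran from 16541396 to 26065856 counts, so that 3 counts equal 0.115 to 0.181 CPM. That level covers counting error only, since amplified copies of a molecule were not marked.

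The 10 genes, the other lists and the tests were chosen with earlier results of these data known. Named beside the 10 genes were the other junction genes called in any test (at most 6 per list), up to 2 per list with the highest level, and the 3 genes most like each of the 3 members with the lowest p for any difference. Genes named outside this rule (Tjp3, cell type markers) are given for background. Alternatives were other scalings (DESeq2-type factors, library size, epithelial reference genes), DESeq2 1.42.0, limma-voom (limma 3.58.1), other filters, the 6 samples of a comparison alone, the sample number as a block, and each sample left out. Drawing libraries down to equal depth was added after seeing the data. Tested on simulated counts for 90 against 30 days (15224 genes, 200 changed), the edgeR test recovered 62% of genes with a true log2 change of 1 and 93% where it was 2, and 6.63% of calls were false. Changes as small as those of the 10 genes were not simulated, so the recovery at such sizes is not known. Software was R 4.3.3 and matplotlib 3.10.9.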

Additional observations from a re-analysis of the deposited data

How the results depend on the processing

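The 10 genes kept their direction in most alternatives, and the 29 changes of sign, in 14 of 30 pairs of a gene and a comparison, all had an adjusted p of at least 0.568. Counts of the 10 genes called at 90 against 30 days, 1 in the analysis reported, were 2 with DESeq2, the 6 samples alone or the block, 3 with no low-count filter, and 0 with epithelial reference scaling, limma-voom or equal depth (added after seeing the data). Leaving out each sample gave 0 to 2. With no filter, 1 gene (Ocln) passed in the test of any difference. For all genes, the counts reported are 238 (60 against 30 days), 39 (90 against 60), 544 (90 against 30) and 501 (any difference). In the same order, DESeq2 gave 369, 141, 860 and 847, no filter 459, 354, 1045 and 1194, and epithelial reference scaling 84, 17, 325 and 245. Library-size scaling gave 90 in the first and 277 in the last. Leaving out each sample gave 73 to 244, 16 to 103, 184 to 703 and 220 to 683, and the cause was not tested. The lowest of these came without 60-day sample 2 (73), 90-day sample 2 (16) and 30-day sample 1 (184 and 220), and the highest of all 4 without 60-day sample 3.

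Library-size scaling moved the median log2 change of all genes to 0.05, 0.17 and 0.24, and the split of higher to lower calls at 90 against 30 days from 275 and 269 to 406 and 34. At 60 against 30 days the split was 79 and 11 in place of 173 and 65, and at 90 against 60 days 19 and 9 in place of 14 and 25. Epithelial reference scaling gave 129 and 196 at 90 against 30 days. Genes that changed sign with library-size scaling had values below the shift of all genes. At 90 against 30 days these were Cldn3 0.0143, Cldn5 0.19, Cldn8 0.14 and F11r 0.16, at 90 against 60 days Cldn3 0.0603, Cldn8 0.12 and F11r 0.0806, and at 60 against 30 days Cldn8 0.0188. Epithelial reference scaling gave Cldn10 -0.0711 and F11r -0.0631 at 60 against 30 days and Cldn4 -0.0561 at 90 against 30 days. Limma-voom gave Cldn10 -0.0045 at 60 against 30 days, and equal depth gave Cldn5 0.0481 at 90 against 30 days.

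Leaving out each sample, changes of sign occurred at 60 against 30 days for Cldn3 (-0.21 to 0.0484), Cldn8 (-0.15 to 0.0498), Cldn10 (-0.20 to 0.29), Cldn12 (-0.32 to 0.0338) and F11r (-0.0603 to 0.0841), at 90 against 60 days for Cldn7 (-0.0259 to 0.20) and Cldn8 (-0.12 to 0.0191), and at 90 against 30 days for Cldn4 (-0.0913 to 0.10), Cldn5 (-0.20 to 0.0532) and Cldn8 (-0.21 to 0.0030). The order of the levels per length kept 8 to 10 of 10 genes at their rank.

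Same-numbered samples of different days correlated at -0.06 to 0.191, and differently numbered ones at -0.21 to 0.189. These ranges overlap, and values centred on 3 samples per group cannot decide whether the numbers pair the samples. With the sample number as a replicate block, 270, 92, 717 and 609 genes were called. Within it the 10 genes gave 0, 0, 2 and 0 calls, and Cldn12 at 90 against 30 days had an adjusted p of 0.0415.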
